A study of Mus musculus with 42 samples.

Results

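Foxo1, Foxo3 and Foxo4, forkhead transcription factors, and Fbxo32, Trim63, Trim54 and Fbxo30, muscle-expressed ubiquitin ligases of the atrophy program or their close relatives, were followed by their gene symbols through the RNA-seq count files. All 7 symbols were found among the 24466 genes of the files, and all 7 passed the filter on low counts, Trim63 through its counts in -Dox cells.

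RNA was sequenced from 3 kinds of mouse cells. iPax7 cells are myogenic precursors made from mouse embryonic stem cells, sorted as PDGFRa-positive and Flk-1-negative, in which doxycycline (Dox) switches on a Pax7 transgene. They were grown with FGF basic and Dox (+Dox, 3 libraries, 0.75 ug/ml in the sample labels, although the growth protocol writes this dose in mg/ml) or with FGF basic alone for 3 days after Dox was withdrawn (-Dox, 2 libraries). Satellite cells (3 libraries) were sorted without culture from muscle of mice that carry a Pax7-ZsGreen reporter, so they differ from the iPax7 cells in origin, genotype and handling as well as in Pax7 level, and these cannot be told apart. The libraries of a group are numbered files of 1 sample and no label says that they came from separate cultures or animals, so p-values measure the spread between libraries, which may be technical. In bulk RNA, fewer cells of a type and less RNA per cell cannot be told apart.

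In muscle, Foxo factors are held in the cytoplasm when insulin or IGF1 activates Akt, and enter the nucleus when that signal falls. There they raise transcription of genes for protein breakdown, the best known being Fbxo32 (atrogin-1) and Trim63 (MuRF1). Fbxo32 is the substrate-binding subunit of an SCF ubiquitin ligase, Trim63 and Trim54 (MuRF3) are RING ligases found at the sarcomere, and Fbxo30 (MUSA1) is another F-box protein of the same program. These ligases are usually studied in myofibres that lose mass, not in precursor cells.

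Sequencing depth was 39010958 to 54674619 counts on genes per library. Reads that were not uniquely aligned came to 7.11% to 7.60% of the counted reads in iPax7 libraries and to 23.6% to 30.7% in satellite cell libraries. Pax7, the induced gene, fell from 12833 ± 1261 normalized counts (SD, n = 3) in +Dox to 245.1 ± 34.6 (n = 2) in -Dox, and the differentiation factor Myog rose from 4150 ± 589 to 174963 ± 20020. Summed normalized counts of 17 muscle differentiation markers were 10896 to 12521 in +Dox, 2692744 to 2799677 in -Dox and 34765 to 46414 in satellite cell libraries. Satellite cell libraries also carried markers of other cells of muscle. The sums were 19008 to 26955 for 8 endothelial markers against 115.7 to 316.9 in +Dox, 2445 to 10050 for 9 blood markers against 157.5 to 471.7, 72270 to 139447 for 8 mesenchymal markers against 5249 to 12606, and 13930 to 23624 for 8 mural and Schwann cell markers against 73.8 to 275.5. The sum of 14 adult myofibre markers was 13576 to 23712 in satellite cell libraries, 3478 to 4300 in +Dox and 1410703 to 1472311 in -Dox, with 1 marker at 0 in +Dox and 1 in -Dox. The sum of 12 dissociation response genes came to 428871 to 1202380 in satellite cells and to 6229 to 6837 in +Dox. The part of these signals in the satellite cell results below was not tested.

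Trim63 was detected mainly in -Dox cells (chr4:133871035-133885544, plus strand, NCBIM37, the same assembly as mm9). It had 0, 0.74 and 36.4 normalized counts in the +Dox libraries 1, 2 and 3. Its levels were 1564 and 1542 in the -Dox libraries, and it was at 0 in all 3 satellite cell libraries. The -Dox libraries were thus far above all others, and within +Dox nearly all of its reads, 40 of 41, were in library 3. The summed differentiation markers given above differed little between the +Dox libraries. Over all but the lowest-count genes, however, library 3 stood apart. Its chi-square per degree of freedom was 440 against library 1 and 317 against library 2, whereas libraries 1 and 2 gave 49.3. The source of the Trim63 reads in library 3 was not tested.

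After Dox withdrawal the log2 fold change of Trim63 was 6.99 ± 1.70 (SE), with an unadjusted p of 0.00394 and an adjusted p of 0.0509 (edgeR quasi-likelihood F test, Benjamini-Hochberg over 14836 genes), so it did not pass the threshold of 0.05. Without +Dox library 3 the log2 fold change was 11.6 and the adjusted p was 0.00392 by the same edgeR test, and without satellite cell library 1 or 2 the edgeR adjusted p was 0.047 or 0.0468. The call was made under 8 of 15 alternative settings, with adjusted p values from 6.03e-08 to 0.176. The lowest of these p values came from the replicate block in 2 groups, which fits +Dox library 3 exactly. Against satellite cells, -Dox cells held at least 391-fold more Trim63, taking a floor of 3 counts in each satellite cell library. This difference passed the edgeR test (adjusted p = 0.00499). In the main fit the gene had entered this test and that of -Dox against +Dox only through its -Dox counts. A call in either comparison is therefore no independent support. The low level in +Dox and the absence of counts in satellite cells were not separated by the edgeR test (adjusted p = 0.0808, or 0.0362 without +Dox library 1).

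Trim54, the relative of Trim63, was well expressed before withdrawal (chr5:31419085-31440003, plus strand). Its normalized counts were 1411, 1905 and 2285 in +Dox and 3180 and 4151 in -Dox. They were 109.3, 2.68 and 0 in the satellite cell libraries 1, 2 and 3. The 3 groups did not overlap, although the satellite cell libraries differed greatly among themselves. Between the iPax7 groups the log2 fold change was 0.97 ± 1.13 (SE), which did not pass (edgeR adjusted p = 0.717). This error rests on a spread estimated jointly with the satellite cell libraries. With the 2 iPax7 groups only, the log2 fold change was again 0.97 and the edgeR adjusted p was 0.0562. In satellite cells Trim54 was 50.02-fold lower than in +Dox (log2 fold change -5.64 ± 1.28, edgeR adjusted p = 0.00645) and 98.2-fold lower than in -Dox (-6.61 ± 1.36, adjusted p = 0.00457). Without satellite cell library 1 these log2 fold changes were -10.3 and -11.3.

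Fbxo30 had the opposite distribution (chr10:11001128-11017850, plus strand). Its normalized counts were 1013, 1301 and 1263 in +Dox, 1640 and 2034 in -Dox, and 30568, 42616 and 25327 in satellite cells. Every satellite cell library was above every iPax7 library, and the mean of 32837 ± 8865 (SD, n = 3) ranked at percentile 98.3 of the genes tested. The increase was 27.5-fold over +Dox (log2 4.78 ± 0.30 SE, edgeR adjusted p = 8.84e-06) and 17.9-fold over -Dox (4.16 ± 0.35, adjusted p = 5.82e-05). Both passed the test in all 15 alternatives. The summed dissociation response given above was also far higher in these 3 libraries. Upon Dox withdrawal the difference was 0.62 ± 0.28 on the log2 scale, with groups that did not overlap, and it did not pass (edgeR adjusted p = 0.24).

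Fbxo32 was expressed in all 3 kinds of cells, with no difference that passed the test (chr15:58011634-58046433, minus strand). Its normalized counts were 1422, 1423 and 972.5 in +Dox and 1095 and 1337 in -Dox. The satellite cell libraries held 2081, 2600 and 1219. The iPax7 groups overlapped, with a log2 fold change of -0.07 ± 0.39 (SE, edgeR adjusted p = 0.996). Satellite cell library 3 lay within the iPax7 range, and neither the difference from +Dox (log2 0.63 ± 0.35, edgeR adjusted p = 0.165) nor that from -Dox (0.69 ± 0.39, adjusted p = 0.184) passed.

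Of the transcription factors, Foxo1 was the most abundant per kilobase of exon (chr3:52072259-52154031, plus strand). Its normalized counts were 3232, 2577 and 1838 in +Dox and 2370 and 1517 in -Dox. They were 4548, 3599 and 3442 in satellite cells, above all iPax7 libraries. The satellite cell level was higher than in -Dox by 0.99 ± 0.35 on the log2 scale (SE, edgeR adjusted p = 0.0483). This call was lost in 10 of 15 alternatives, where adjusted p reached 0.34, including when any 1 library other than +Dox library 3 was left out. The differences from +Dox to -Dox (-0.39 ± 0.34, edgeR adjusted p = 0.592) and from +Dox to satellite cells (0.60 ± 0.30, adjusted p = 0.134) did not pass.

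Foxo4 was present at an order of magnitude less (chrX:98449867-98456212, plus strand). Its normalized counts were 111.9, 177.7 and 312.3 in +Dox, 239.9 and 158.8 in -Dox, and 368.6, 320.4 and 127.9 in satellite cells. The 3 groups overlapped, and the log2 fold change on withdrawal was -0.01 ± 0.72 (SE, edgeR adjusted p = 1). Foxo3 had the fewest counts of the factors (chr10:41901647-41996561, minus strand). It had 56.3, 65.2 and 11.8 normalized counts in +Dox, 47.8 and 4.62 in -Dox, and 25.01, 2.68 and 1.32 in satellite cells. Its groups overlapped in all 3 comparisons, its standard errors were 1.57 to 1.71 log2 units, and no difference passed the test. With such errors a change of several fold in Foxo3 could not be told from the spread between libraries.

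**Figure D1:**
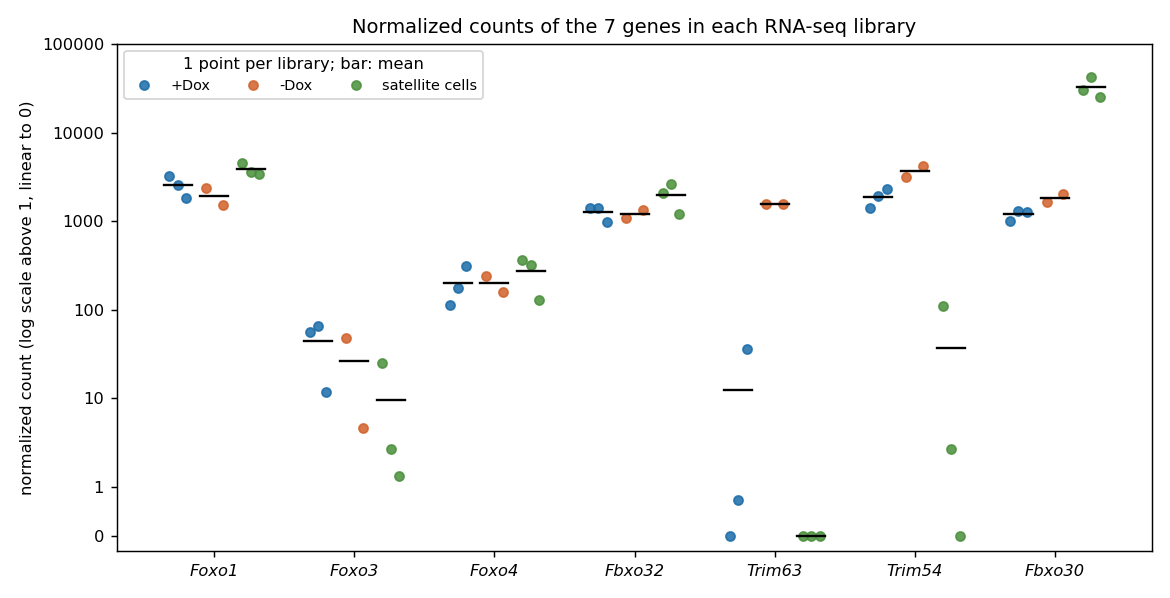
Normalized counts (y axis, logarithmic above 1 and linear down to 0) of the 7 genes (x axis) in 3 +Dox, 2 -Dox and 3 satellite cell libraries, 1 point per library with the group mean as a bar. Trim63 is at 1542 to 1564 in -Dox and at 0 in satellite cells, Fbxo30 is at 25327 to 42616 in satellite cells, and Fbxo32 and Foxo4 overlap across the groups.

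The order of the 7 genes within a group was set on normalized counts per kilobase of exon. In +Dox, Trim54 led with 1300 ± 305 (SD, n = 3), followed by Fbxo32 at 467.4 ± 95.4 and Foxo1 at 459.1 ± 125.7, which were within each other's spread. Fbxo30 followed at 229.4 ± 30.2, Foxo4 at 57.6 ± 29.3, and Foxo3 and Trim63 were last at 6.17 ± 3.97 and 4.36 ± 7.33. In -Dox, Trim54 again led with 2553 ± 478 per kilobase (n = 2). Trim63 came second at 546.4 ± 5.6, next to Fbxo32 at 446.7 ± 62.7, Fbxo30 at 353.5 ± 53.7 and Foxo1 at 350.0 ± 108.7. In satellite cells Fbxo30 led at 6318 ± 1706 per kilobase (n = 3), above Fbxo32 at 722.6 ± 256.4 and Foxo1 at 695.8 ± 107.8. The leading ligase per kilobase was thus Trim54 in iPax7 cells and Fbxo30 in satellite cells.

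Counted over the 7 genes, 0 passed the test for -Dox against +Dox, where 7.7% of the 14836 genes tested passed. At an unadjusted p under 0.05 there was 1, Trim63, and DESeq2 also called 0. For satellite cells against +Dox, 2 of 7 passed beside 44.9% of all genes, 1 higher (Fbxo30) and 1 lower (Trim54), beside 25.1% higher and 19.8% lower. For satellite cells against -Dox, 4 of 7 passed beside 39% of all genes. Fbxo30 and Foxo1 were higher and Trim54 and Trim63 lower, beside 20.9% and 18.1%. Trim63 had entered this test and that of -Dox against +Dox only through its -Dox counts. These 3 comparisons share libraries pairwise. The groups did not overlap for 3, 3 and 4 of the genes, beside 45.3%, 56.5% and 64.3% of all genes. The median log2 fold change of the 7 genes was -0.01, 0.44 and 0.45, beside -0.01, 0.17 and 0.23 over all genes tested.

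**Figure D2:**
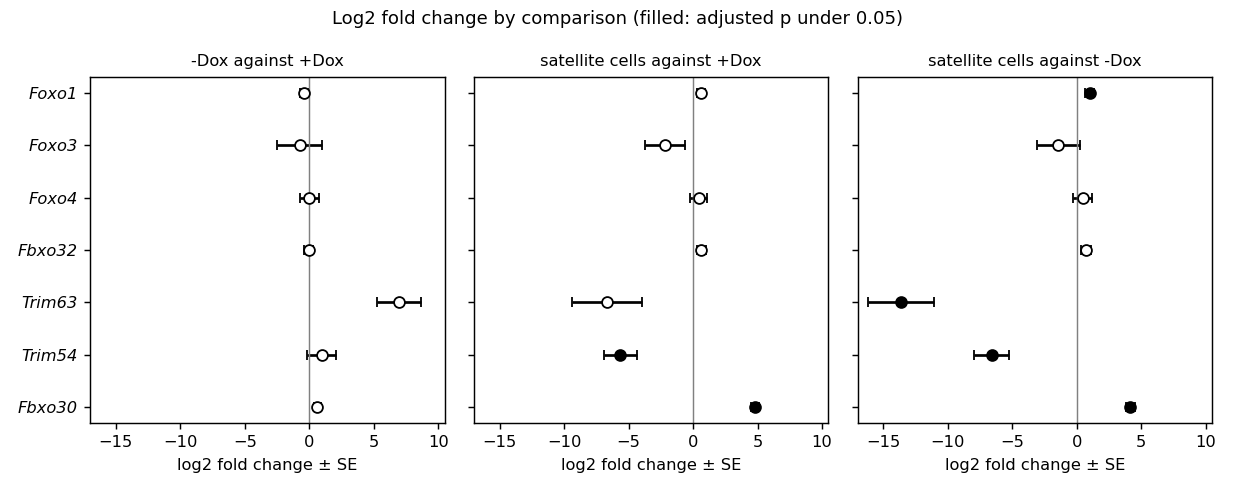
Log2 fold change with its standard error (x axis) of each gene (y axis) in 3 comparisons, filled where the edgeR adjusted p was under 0.05. Fbxo30 lies at 4.78 and 4.16 in the satellite cell comparisons and Trim54 at -5.64 and -6.61, and the fitted values of Trim63 against satellite cells are no bounds since those libraries are at 0.

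A blastn search of the genome at 85% identity or more and an expect value of at most 1e-10 listed no match outside the own gene for the longest transcript of Foxo1, Foxo3, Foxo4, Fbxo32 or Trim54. It listed 34 matches of at least 100 bases elsewhere for Trim63 and 2508 for Fbxo30. The longest were 150 bases for Trim63 and 155 bases for Fbxo30, at 86.0% and 87.1% identity. Whether reads were counted by strand is not given in the sources used here. Foxo1, Fbxo32 and Trim54 each overlap a gene on the other strand in GENCODE M1 (RP24-337A16.1, Gm15943 and Gm15469), whose reads could then not be told apart from theirs.

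Chromatin was read from the authors' merged region lists, 1 per condition, so these values have no replicates and no test. They comprise 10 ATAC-seq peak lists, which mark DNA open to the Tn5 transposase, and ChIP-seq regions for Pax7 and 4 histone marks. C2C12, a mouse myoblast line, was also used as myoblasts, as cells carrying flag-tagged Pax7 or a flag control, and as myotubes. A promoter was called accessible where a peak overlapped 1 kb on either side of the start site at the annotated 5′ end of the gene. Trim63 has 4 annotated start sites, Foxo3, Foxo4 and Trim54 have 3 each and Fbxo30 has 2. Their further start sites were not examined separately. The promoters of Trim63, Trim54 and Fbxo30, whose RNA differed between groups, are printed with that of Fbxo32, whose RNA did not pass any test. Each is the 250 bases that precede the start site, read from NCBIM37 5′ to 3′ on the gene's strand, with capitals marking GTAAACA, the core sequence preferred by Foxo proteins, CAGCTG, an E-box used by myogenic factors, and the Mef2 box, all searched on both strands.
Trim63, chr4:133870785-133871034, plus strand: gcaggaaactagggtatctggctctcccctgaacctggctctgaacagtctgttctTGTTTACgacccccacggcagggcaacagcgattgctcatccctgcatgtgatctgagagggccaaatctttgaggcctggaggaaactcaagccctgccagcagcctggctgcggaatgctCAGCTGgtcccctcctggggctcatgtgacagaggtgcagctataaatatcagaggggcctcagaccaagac
Trim54, chr5:31418835-31419084, plus strand: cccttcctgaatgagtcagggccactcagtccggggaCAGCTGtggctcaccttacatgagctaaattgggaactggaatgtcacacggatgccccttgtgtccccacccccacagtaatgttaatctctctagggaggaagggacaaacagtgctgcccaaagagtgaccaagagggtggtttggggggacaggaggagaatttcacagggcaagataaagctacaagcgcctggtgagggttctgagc
Fbxo30, chr10:11000878-11001127, plus strand: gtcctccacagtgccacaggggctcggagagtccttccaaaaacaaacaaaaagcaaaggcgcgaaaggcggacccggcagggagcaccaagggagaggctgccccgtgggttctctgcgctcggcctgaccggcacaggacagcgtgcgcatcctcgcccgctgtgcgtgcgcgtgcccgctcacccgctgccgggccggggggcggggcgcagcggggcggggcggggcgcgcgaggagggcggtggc
Fbxo32, chr15:58046434-58046683, minus strand: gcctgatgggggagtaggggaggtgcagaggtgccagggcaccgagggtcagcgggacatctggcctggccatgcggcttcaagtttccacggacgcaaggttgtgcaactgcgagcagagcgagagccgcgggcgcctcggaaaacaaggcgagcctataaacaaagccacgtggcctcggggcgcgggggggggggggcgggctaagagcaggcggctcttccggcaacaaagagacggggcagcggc

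The Trim63 promoter held 1 match to the Foxo core, on the strand opposite to transcription, with its first base at position -194, counted back from -1 just before the start site. It also held 1 CAGCTG at -72. The Trim54 promoter held 1 CAGCTG at -213. None of the 3 motifs was found in these windows of the other 5 genes. Among 22072 protein-coding promoters of the same length, 2.75% held GTAAACA, 11.8% held CAGCTG and 3.14% held the Mef2 box. The promoters also differed in base composition. Trim63 and Trim54 had 4 and 3 CG dinucleotides in the 250 bases, below the median of 8 over all promoters, whereas Fbxo32 had 21, Fbxo30 had 29 and the 3 Foxo promoters had 14 to 32.

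With its further start sites not examined, accessibility at the 5′ end of the Trim63 gene did not follow its RNA in iPax7 cells. No peak was listed there in +Dox, at 12 h, 24 h or 3 days after withdrawal, in satellite cells, or in C2C12 myoblasts, flag control or Pax7-flag cells. A peak was listed in myotubes made from iPax7 cells, at 9.07-fold enrichment, and in C2C12 myotubes, at 3.05-fold, which ranked at percentile 0.643 of the promoters with a peak. By contrast, 63.2% of all promoters were accessible in the -Dox list of day 3, when Trim63 stood at 1542 to 1564 normalized counts.

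The Trim54 promoter was accessible in all 5 iPax7 lists, at 15.7-fold enrichment in +Dox, 15.5-fold at 12 h, 31.6-fold at 24 h, 26.3-fold at 3 days and 18.1-fold in myotubes. The lists differ in overall enrichment, with a median over promoters of 22.04-fold in +Dox, 13.3-fold at 12 h and 22.7-fold at 24 h, and the percentile of Trim54 was 37.8, 57.3 and 63.3 in these lists, 58.6 at 3 days and 54.1 in myotubes. It had no peak in satellite cells, where its RNA was also lowest, although 56.2% of all promoters did. In C2C12 cells it had no peak in myoblasts or in the flag control, a peak of 9.10-fold in Pax7-flag cells, and one of 13.2-fold in C2C12 myotubes. The Pax7-flag list (99025 peaks) was longer than the flag control list (85025 peaks), and 54.2% and 53.2% of all promoters were accessible in them.

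The other 5 promoters were accessible in all 10 lists. Fbxo30 ranked high, from percentile 68.9 of promoters with a peak in the 12 h list to 95.6 in C2C12 myotubes. It stood at 90.5 in satellite cells, where its RNA was highest, and at 72.3 in +Dox. Foxo3 ranked from percentile 70.1 to 85.9, with 49.4-fold enrichment in +Dox, although its RNA was the lowest of the 7 in satellite cells after that of Trim63. Foxo1 ranked from 24.2 to 63.2, Foxo4 from 9.42 to 39.4 and Fbxo32 from 1.47 to 62.4, these 3 being highest in the satellite cell list.

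**Figure D3:**
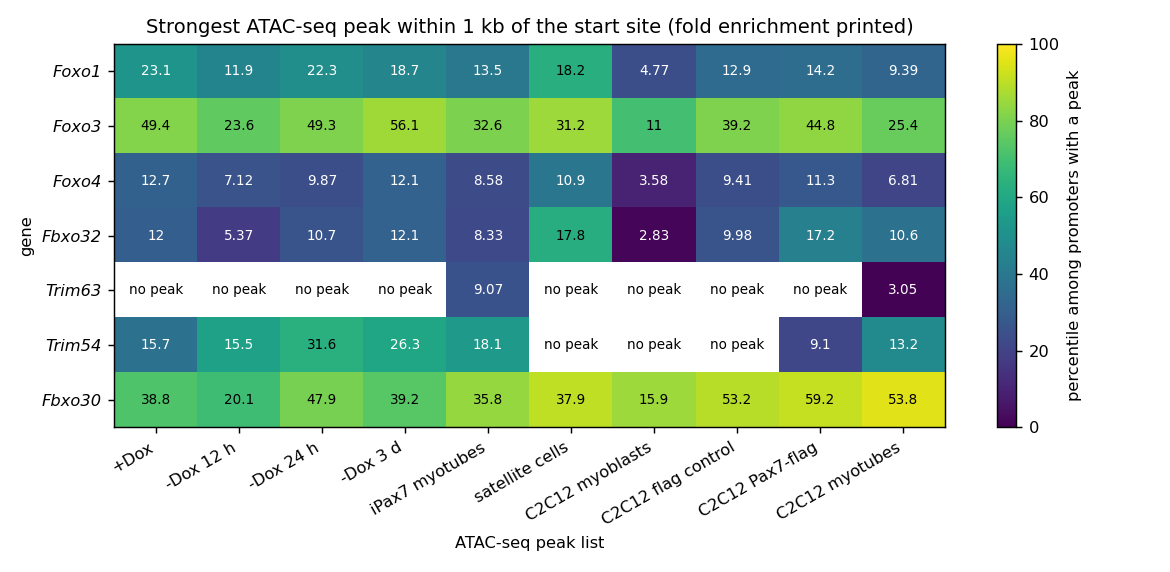
Strongest ATAC-seq peak within 1 kb of the start site of each gene (rows) in 10 peak lists (columns), with the fold enrichment printed and the colour giving the percentile among promoters with a peak in that list. Trim63 has a peak in the 2 myotube lists, Trim54 has none in satellite cells, C2C12 myoblasts and the flag control, and the other 5 genes have a peak in each list.

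Histone marks at Trim63 did differ between the +Dox and -Dox lists. Of the 2001-base window around its start site, regions of H3K27Ac, a mark of active promoters and enhancers, covered 231 bases in +Dox and 1689 bases 3 days after withdrawal. H3K4me3, a mark of active promoters, covered 281 and 1663 bases, and H3K4me1, found at enhancers and promoter flanks, covered 325 and 1519 bases. All 3 marks covered more of the window in -Dox, where the RNA was also higher. At Trim54, H3K27Ac covered 1752 bases in +Dox and 1629 in -Dox and H3K4me3 covered 1506 and 1706. Over all promoters with a region the median coverage of H3K4me3 was 1599 bases in +Dox and 1595 in -Dox, that of H3K27Ac was 1114 and 947.0, and that of H3K4me1 was 1454 and 912.0.

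H3K4me1 covered less of the window in -Dox than in +Dox at the other 5 genes. It went from 1829 to 751 bases at Foxo1, from 1815 to 771 at Foxo3, from 1253 to 157 at Foxo4, from 2001 to 1477 at Fbxo32 and from 1758 to 1025 at Fbxo30, in the same direction as the median over all promoters. H3K4me3 and H3K27Ac were present at all 7 genes in both lists. The repressive mark H3K27me3 was listed at 0 of the 7 in +Dox and in -Dox, beside 20.3% and 18.5% of all promoters. In C2C12 cells H3K27Ac covered 721 bases at Trim54 in the flag control and 1886 in Pax7-flag cells, and it was not listed at Trim63 in either. H3K27me3 covered 484 bases at Trim63 in Pax7-flag cells and was not listed there in the flag control.

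**Figure D4:**
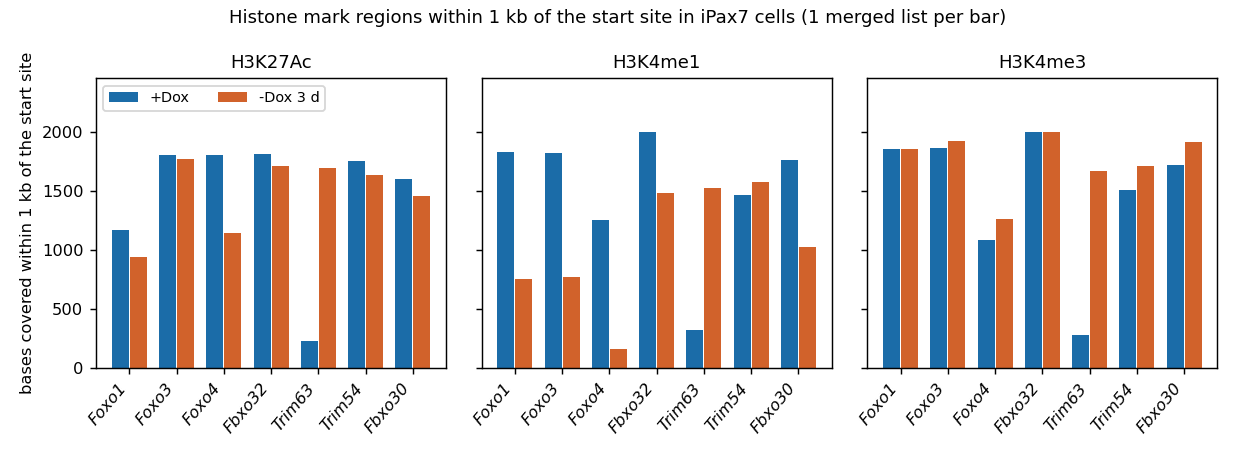
Bases covered by H3K27Ac, H3K4me1 and H3K4me3 regions (y axis) in the 2001-base window around the start site of each gene (x axis) in iPax7 cells, 1 merged list per bar, +Dox and 3 days after withdrawal. Trim63 goes from 231, 325 and 281 bases in +Dox to 1689, 1519 and 1663 in -Dox for the 3 marks.

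Pax7 binding was available as 2455 sites in +Dox cells. The authors kept peaks seen in at least 2 +Dox samples and dropped any that a -Dox sample also had. They state that this is likely to under-estimate the number of sites, so a nearer site may be missing from the list. A site centre lay within 100 kb of the start site for 2 of the 7 genes, Fbxo32 and Trim63, beside 17.7% of all protein-coding genes. The site near Trim63 (chr4:133951744-133952671) was 81.2 kb downstream and 0.028 kb from the start site of Pafah2, and its accessibility was listed in all 10 conditions. For Foxo1 and Trim54 the nearest sites were 153.0 and 175.0 kb away, and for Foxo3, Foxo4 and Fbxo30 they were 894.0, 4546 and 1484 kb away.

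The site near Fbxo32 (chr15:58051919-58052388) lay 5.72 kb upstream of its start site, which was the nearest start site of any protein-coding gene. The 300 bases around its centre are shown because accessibility there differed between the lists, read from the plus strand of NCBIM37, with capitals marking GTCAC, a core of the sequence bound by the paired domain of Pax proteins, on either strand.
Fbxo32 upstream Pax7 site, chr15:58052004-58052303: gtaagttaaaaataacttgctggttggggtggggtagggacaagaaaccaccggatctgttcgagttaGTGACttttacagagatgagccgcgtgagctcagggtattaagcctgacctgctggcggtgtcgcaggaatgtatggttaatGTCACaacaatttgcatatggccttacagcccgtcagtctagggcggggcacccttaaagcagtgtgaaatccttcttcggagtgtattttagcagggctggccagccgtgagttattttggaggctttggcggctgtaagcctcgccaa

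GTCAC matched at bases 69 and 151 of this window. It is a short motif, held by 49.2% of the 2455 Pax7 sites cut to the same length and by 39.0% of 250-base promoters. Palindromic homeodomain pairs spaced by 2 or 3 bases, the Foxo core, CAGCTG and the loose Mef2 box were not in the window.

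ATAC-seq enrichment at this site was 27.4-fold in +Dox, 11.1-fold at 12 h, 13.1-fold at 24 h and 9.43-fold at 3 days after withdrawal, and 7.60-fold in iPax7 myotubes. Among the iPax7 lists it was highest in +Dox, with induced Pax7, and the peak remained listed throughout. The lists differ in overall enrichment, with a median over promoters of 22.04-fold in +Dox, 13.3-fold at 12 h and 22.7-fold at 24 h. That median was 20.9-fold at 3 days and 16.4-fold in iPax7 myotubes. In C2C12 cells no peak was listed in myoblasts, and the enrichment was 3.46-fold in the flag control, 19.1-fold in Pax7-flag cells and 7.28-fold in myotubes. No peak was listed in satellite cells. Over all 2455 sites, 95.4% overlapped a peak in +Dox, 63.2% at 12 h, 63.4% at 24 h and 68.0% at 3 days. The share was 53.0% in satellite cells, 38.6% in the flag control and 71.0% in Pax7-flag cells. H3K27Ac regions covered 2375 bases within 1 kb of the site in +Dox and 1668 in -Dox. H3K4me1 covered 2288 and 2295 bases and H3K4me3 covered 1173 and 2203. The lists differ in length, with 119528 and 90168 regions for H3K27Ac, 186990 and 243932 for H3K4me1 and 94067 and 214172 for H3K4me3. Over all Pax7 sites, 78.1% and 43.5% had H3K27Ac within 1 kb, 95.1% and 79.9% H3K4me1, and 77.3% and 79.1% H3K4me3. A change particular to this site was not tested. The RNA of Fbxo32 over the same 2 conditions was 1272 ± 260 (SD, n = 3) and 1216 ± 171 (n = 2) normalized counts, which did not differ beyond the spread of the libraries.

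**Figure D5:**
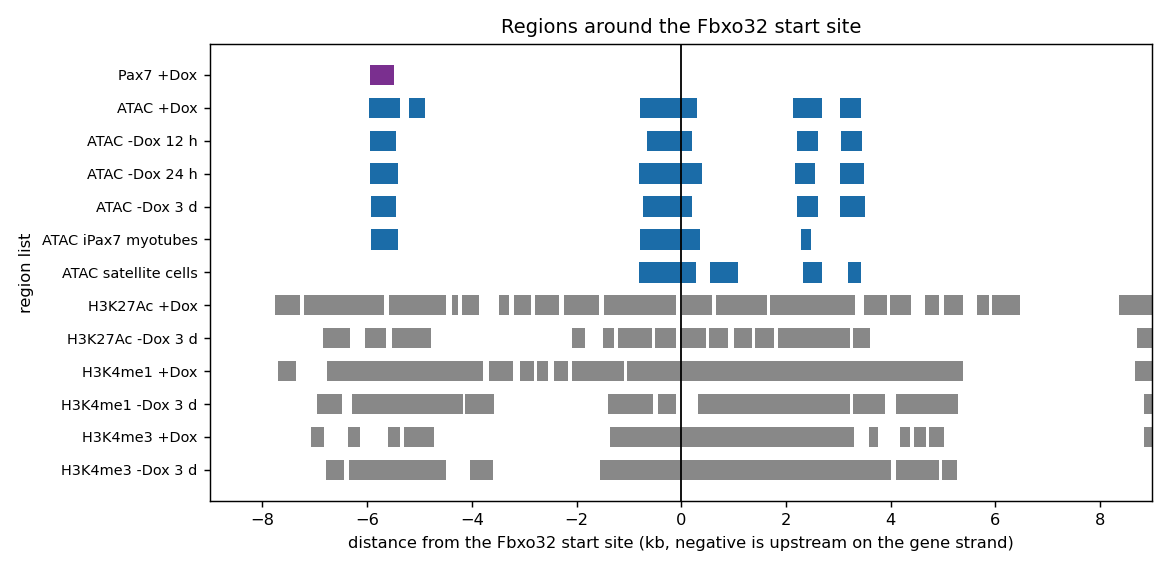
Deposited regions (rows) by their distance from the Fbxo32 start site in kb (x axis, negative upstream), for the Pax7 site, 6 ATAC-seq lists and 3 histone marks. The Pax7 site 5.72 kb upstream is overlapped by an ATAC-seq peak in the 5 iPax7 lists and by none in satellite cells.

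The pathway that feeds Foxo was described from hand-written lists. The list of 17 upstream genes included insulin and IGF receptors, their substrates, PI3 kinase, and Akt and Sgk kinases. Of these, 1 rose after Dox withdrawal and 0 fell, beside 4.66% and 3.04% of all genes. The gene that rose was the kinase Akt2 (log2 1.96 ± 0.40 SE, edgeR adjusted p = 0.0179). Lower genes numbered 2 at an unadjusted p under 0.05 and 2 in DESeq2. In satellite cells against +Dox, 6 of 17 were higher and 2 lower, beside 25.1% and 19.8% of all genes, so the share of the list that passed was close to that of all genes. Sgk1, a kinase that phosphorylates Foxo proteins, was the strongest with 205862 normalized counts against 5609, and Irs1, an insulin receptor substrate, was lower at 4429 against 14480. Against -Dox, 5 were higher and 2 lower, beside 20.9% and 18.1%. Of 20 tested genes whose products modify Foxo proteins, only the AMPK subunit Prkaa2 passed in edgeR after withdrawal, beside 7.7% of all genes. It rose from 315.1 to 3264 normalized counts (edgeR adjusted p = 0.0238), and DESeq2 also called 1 lower. In satellite cells 7 were higher and 4 lower than in +Dox, beside 25.1% and 19.8% of all genes, among them the deacetylases Sirt1 (3211 against 228.4) and Sirt2 (13276 against 2666) and, in the other direction, the ligases Mdm2 and Skp2. Against -Dox, 6 were higher and 4 lower, beside 20.9% and 18.1%.

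Known Foxo target genes outside the atrophy set gave 4 higher and 0 lower of 24 on withdrawal (1 lower at an unadjusted p under 0.05, 0 in DESeq2), beside 4.66% and 3.04% of all genes, led by the cell cycle inhibitor Cdkn1a (11098 to 43307 normalized counts, log2 1.96 ± 0.25, edgeR adjusted p = 0.00178) and the repressor Bcl6 (204.4 to 1199). In satellite cells 14 of 24 were higher and 4 lower than in +Dox, beside 25.1% and 19.8% of all genes. The higher ones included the selenoprotein Sepp1 and the pseudokinase Trib1 (22349 against 242.4), and the lower ones were Ccnd1 and Ccnd2, cyclins that Foxo factors are known to repress, and Cat and Eif4ebp1, which Foxo factors are known to raise (log2 -1.43 and -0.84, edgeR adjusted p = 0.00146 and 0.0405, both named after their values were seen). Their median log2 fold change was 1.72, beside 0.17 over all genes. Against -Dox, 9 were higher and 4 lower, beside 20.9% and 18.1%.

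Of 28 autophagy and proteasome genes of the atrophy program, 1 rose on withdrawal, the autophagy conjugation protein Atg12 (2617 to 7534), and 1 fell, the lysosomal regulator Tfeb (101.4 to 0.46 normalized counts, edgeR adjusted p = 0.035), a share close to the 7.7% of all genes that passed. In satellite cells 12 were higher and 4 lower than in +Dox, beside 25.1% and 19.8% of all genes. The autophagy receptor Sqstm1 stood at 54964 against 10603 and Gabarapl1, which builds the autophagosome, at 8864 against 1044, whereas the proteasome subunit Psma1 was lower at 5000 against 17183. Against -Dox, 8 were higher and 6 lower, beside 20.9% and 18.1%.

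Among 31 other ubiquitin ligases of muscle, 8 rose and 1 fell on withdrawal, beside 4.66% and 3.04% of all genes. The list was written by hand with earlier results of these data known. In the same comparison 17 of 17 muscle differentiation markers rose, and the part of differentiation in the ligase counts was not tested. Asb5, a cullin adaptor, went from 9.57 to 1801 normalized counts (log2 7.54 ± 0.52, edgeR adjusted p = 4.3e-05) and Klhl41, a Kelch protein of the sarcomere, from 66.2 to 10767. Nedd4l, a HECT ligase of membrane proteins, fell from 2065 to 426.2. In satellite cells 9 were higher and 4 lower than in +Dox, beside 25.1% and 19.8% of all genes, and Asb5 reached 188838. Against -Dox, 4 were higher and 8 lower, beside 20.9% and 18.1%, the latter led by Trim55 (MuRF2, 62.1 against 8860), the third MuRF protein, and Klhl31. Of 11 core SCF genes 0 passed on withdrawal in edgeR, beside 7.7% of all genes. Of them, 1 was higher and 1 lower both at an unadjusted p under 0.05 and in DESeq2. In satellite cells against +Dox 1 was higher (Cul1, the scaffold) and 5 lower, including Skp2 and Nedd8, beside 25.1% and 19.8% of all genes, and against -Dox 6 were lower, beside 18.1%.

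Of 18 tested genes for reported substrates of these ligases, 6 did not pass on withdrawal, 12 rose and 0 fell (0 also at an unadjusted p under 0.05 and in DESeq2), beside 4.66% and 3.04% of all genes. The lowest p values were those of the myosin light chain Mylpf (1225 to 180679) and the troponin Tnni2 (214.5 to 34165), and the median log2 fold change of the 18 genes was 6.12 beside -0.01 over all genes. Most of the 18 are sarcomere genes, which overlap the differentiation markers above, 17 of 17 of which also rose. In satellite cells 6 were higher and 4 lower than in +Dox, beside 25.1% and 19.8% of all genes, and Des and Myod1 among the higher and Mylpf and Ttn among the lower had the lowest p values. Against -Dox, 2 were higher and 10 lower, beside 20.9% and 18.1%.

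The genes with the most similar pattern were named for each member by Pearson's r of log2(normalized count + 1) over the 8 libraries, among 11359 or 11360 genes with a mean of at least 100. They were Svbp (r = 0.986) and Fam96b (0.981) for Trim63, Cst6 (0.999) and 2810006K23Rik (0.996) for Trim54, and Plk2 and Il12a (both 0.996) for Fbxo30. For Fbxo32 they were Arcn1 (0.963) and 6030458C11Rik (0.957). For Foxo1 they were Strbp (0.979) and Gatc (0.974), for Foxo3 Trim26 (0.972) and Trappc11 (0.946), and for Foxo4 Arfip2 (0.962) and Nol7 (0.928). With 8 libraries in 3 groups and so many genes compared, these values describe the libraries and are given without a test.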

How the data were processed

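RNA-seq values are raw counts per gene that the authors deposited, 1 file per library. The submitters' processing notes name Trimmomatic 0.32, TopHat2 2.0, Bowtie2 2.2, HTSeq 0.6 and mm9, without saying which step each served. For ATAC-seq the authors aligned reads to mm9 with Bowtie2 2.2.6, removed duplicates, offset read ends for Tn5, merged replicates and called peaks with MACS2 2.0.10. Those deposited lists hold a fold enrichment and −log10 p and q values per peak. The deposited Pax7 and histone regions hold boundaries only, called by the authors with Qeseq, for histone marks on merged replicates.

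Counts were tested in edgeR 4.0.16 (R 4.3.3) with TMM scaling, filterByExpr, 1 mean per group over the 8 libraries, the quasi-likelihood F test and Benjamini-Hochberg adjustment over 14836 genes. A normalized count is the count divided by the library's effective size relative to the geometric mean of the 8, and standard errors were derived from the log2 fold change and its F statistic. Alternatives were DESeq2 1.42.0, RLE scaling, other filters, fewer groups, a replicate block, leaving out each library and other windows and distances. Start sites are the 5′ ends of GENCODE M1 genes, and copies were searched with blastn 2.17.0. Read counts without molecular identifiers give floors that cover counting error only.

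All 7 genes are described. Of each list the 2 called genes with the lowest p per direction were eligible to be named. The genes and lists were chosen with earlier results of these data known. Replicate numbers come from the deposited files.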

Additional observations from a re-analysis of the deposited data

How the results depend on the processing

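Fbxo30 and Trim54 kept their direction and stayed past the threshold in all 15 alternatives in both satellite cell comparisons. Trim63 did so between satellite cells and -Dox, where its -Dox counts had admitted it to the main test. For -Dox against +Dox the number of genes called higher and lower was 691 and 451. It was 1121 and 1016 with DESeq2, 1128 and 1027 with the 2 groups only, 363 to 823 and 125 to 621 when 1 library was left out, and 1571 to 3352 higher and 1633 to 2969 lower for satellite cells against -Dox when 1 library was left out. Of the 7 genes, 1 was called for -Dox against +Dox without a filter, with 1 CPM in at least 2 libraries and with the 2 groups only, and 0 to 1 when 1 library was left out. Leaving out 1 library gave 2 to 3 for satellite cells against +Dox and 3 to 4 against -Dox.

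The replicate number as a block in the 2 groups called 2023 genes higher, 1994 lower and 4 of the 7 genes, Trim63 (edgeR adjusted p = 6.03e-08), Trim54 (0.000808), Fbxo30 (0.0484) and Foxo1 (0.0443). In all 8 libraries the block called 266 lower and 1 of the 7 genes. Deviations from the group means gave r from -0.0398 to 0.0272 over 7 same-numbered pairs, against -0.0404 to 0.0537 over 14 pairs of unlike number. With 2 libraries in -Dox such deviations mirror each other, so these values cannot decide whether same-numbered libraries were paired.

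Uncalled differences changed sign on the log2 scale for -Dox against +Dox. Foxo4 was 0.021 with DESeq2 and RLE scaling, 0.47 with the replicate block in 2 groups, and -0.34 to 0.46 when 1 library was left out. When 1 library was left out, Fbxo32 ranged from -0.23 to 0.07 and Foxo3 from -3.24 to 0.12, and for satellite cells against -Dox Foxo3 ranged from -3.63 to 1.05. The causes were not tested.

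Peaks with a −log10 q of at least 10 left 3 genes with an accessible promoter in C2C12 myoblasts, against 5. A window of 500 bases left 2 genes with H3K4me1 in the C2C12 flag control, against 4. A Pax7 site lay within 50 kb of 1 gene and within 200 kb of 4. The high spread at low counts limits what can be said of Foxo3 and of Trim63 in +Dox.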
